A study of Bos taurus with 6 samples.

Results

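The genes described here move newly made proteins into the endoplasmic reticulum and carry them onward to the Golgi in coated vesicles. They were chosen by gene symbol: the SEC-numbered genes, the coatomer (COP) genes, the TMED cargo receptors, the KDEL receptors, the translocon-associated SSR genes, the proteins of the signal recognition particle (SRP), the signal peptidase subunits SPCS, and the small GTPases SAR1 and ARF. The rule used names and no measured value, but it was set with earlier results of these data known. It gave 60 of the 9162 genes named on the array, and where a gene had several probe sets, the brightest on average stood for it. The RefSeq gene table of cattle holds 72 symbols that fit the rule, and 12 of these, among them SRP54, SEC23B, SEC24A, SEC24D, SEC16A and ARF6, were not analysed here.

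Primary bovine aortic endothelial cells, freed from the vessel wall by collagenase and grown in RPMI medium, were measured on an Affymetrix bovine array. The treated group (TGFB, 3 arrays) received 5 ng/ml TGF-beta 1 for 24 hours, and the untreated group (Basal, 3 arrays) was left under basal conditions. No group carried a genetic change according to the labels. The design names 3 different cultures. Whether they stem from different animals, whether animals were pooled and whether a treated and a basal array shared a culture is not stated, so p-values measure the spread between these arrays, which may be technical.

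Most secreted and membrane proteins start their route at the ribosome, where the signal recognition particle binds the emerging signal sequence and brings the ribosome to the SEC61 channel. The chain passes through the channel, the signal peptidase removes the signal sequence, and the folded protein leaves in vesicles coated by COPII. COPI vesicles, which form on membranes where ARF GTPases are active, carry escaped residents back, and the KDEL receptors recognise the tail sequence of those residents. Endothelial cells use this route for matrix proteins, adhesion receptors and von Willebrand factor.

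Treatment was not the main axis along which the arrays differed. On the first principal component of all probe sets (63.4% of the variance) Basal 3 lay at 36.0, near TGFB 2 at 39.5 and TGFB 3 at 41.4, whereas TGFB 1 lay at -10.3, Basal 1 at -67.8 and Basal 2 at -38.8. On the second component (24.7% of the variance) the groups lay apart. The treated arrays stood at -48.0, -9.09 and -5.74 and the basal arrays at 10.9, 13.7 and 38.2 there, in order of array number. The sets of arrays that parted on the first component also differed in the control probes of elongation factor 1 alpha. There the 3′ minus the 5′ probe set gave -2.44, -2.09 and -2.01 log2 in TGFB 1, TGFB 2 and TGFB 3. It gave -2.86, -2.51 and -1.87 log2 in Basal 1, Basal 2 and Basal 3. The other control pairs did not part the arrays this way. In the same order of arrays, actin gave 1.82, 1.86 and 1.31 log2 in treated and 1.70, 1.64 and 1.31 log2 in basal cells. GAPDH gave 0.43, 0.26 and 0.35 log2 in treated and 0.49, 0.28 and 0.38 log2 in basal cells. The part of the split between these sets of arrays in the results below was not tested. Of 12 endothelial markers 10 were measured. Their mean level per array was 8.93 to 9.12 log2 in treated cells and 9.12 to 9.77 log2 in basal cells. The ranges all but touched, at 9.1223 log2 for the highest treated and 9.1228 log2 for the lowest basal array. PECAM1 and CDH5, which define endothelium, averaged 11.77 and 11.53 log2 in treated cells and 12.29 and 12.10 log2 in basal cells. CLDN5 was the 1 endothelial marker past the threshold and lay lower in treated cells, with the largest difference of the 10 (-3.17 log2). Of the 10, 7 had differences below 0 and 3 above. Those above were ENG at 0.99 log2 with the groups apart, NOS3 at 0.11 and TEK at 0.017. The mean levels of the 6 leukocyte markers (4.79 to 4.89 log2 in treated and 4.75 to 4.91 log2 in basal cells), the 5 epithelial markers (4.70 to 4.84 and 4.74 to 4.92) and the 6 smooth muscle markers (6.07 to 6.18 and 6.10 to 6.16) overlapped between the groups. For the 7 fibroblast markers they were 6.57 to 6.58 in treated and 6.47 to 6.69 in basal cells, and no marker of these lists passed the threshold. The fibroblast means hide differences in both directions, 4 above and 3 below 0. Among them COL1A2 stood at 0.93 log2 (SE 0.33) and FBLN1 at -1.04 log2 (SE 0.58).

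Of the 60 genes, TMED3 was the 1 past the threshold (limma, Benjamini-Hochberg adjusted p under 0.05 over all 9162 genes). It rose, and no member fell. Over all genes 1.72% passed, 0.557% higher and 1.17% lower, so 1 of 60 is close to the background. The members' differences nevertheless lay mostly above 0. The treated minus basal difference was positive for 44 of 60 (73.3%), against 44.4% of all genes, and its median was 0.21 log2, against -0.033 log2 over all genes. At an unadjusted p under 0.05, 13 members lay higher and 2 lower in treated cells, where the shares over all genes were 5.99% higher and 11.4% lower. In 17 members all treated arrays lay above all basal arrays and in 4 below, against 8.19% and 15.1% of all genes. With 3 arrays a group, an exact permutation test of one gene has a smallest possible p of 0.1. In cultured cells measured in bulk, fewer cells of a type and less RNA per cell cannot be told apart.

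**Figure D1:**
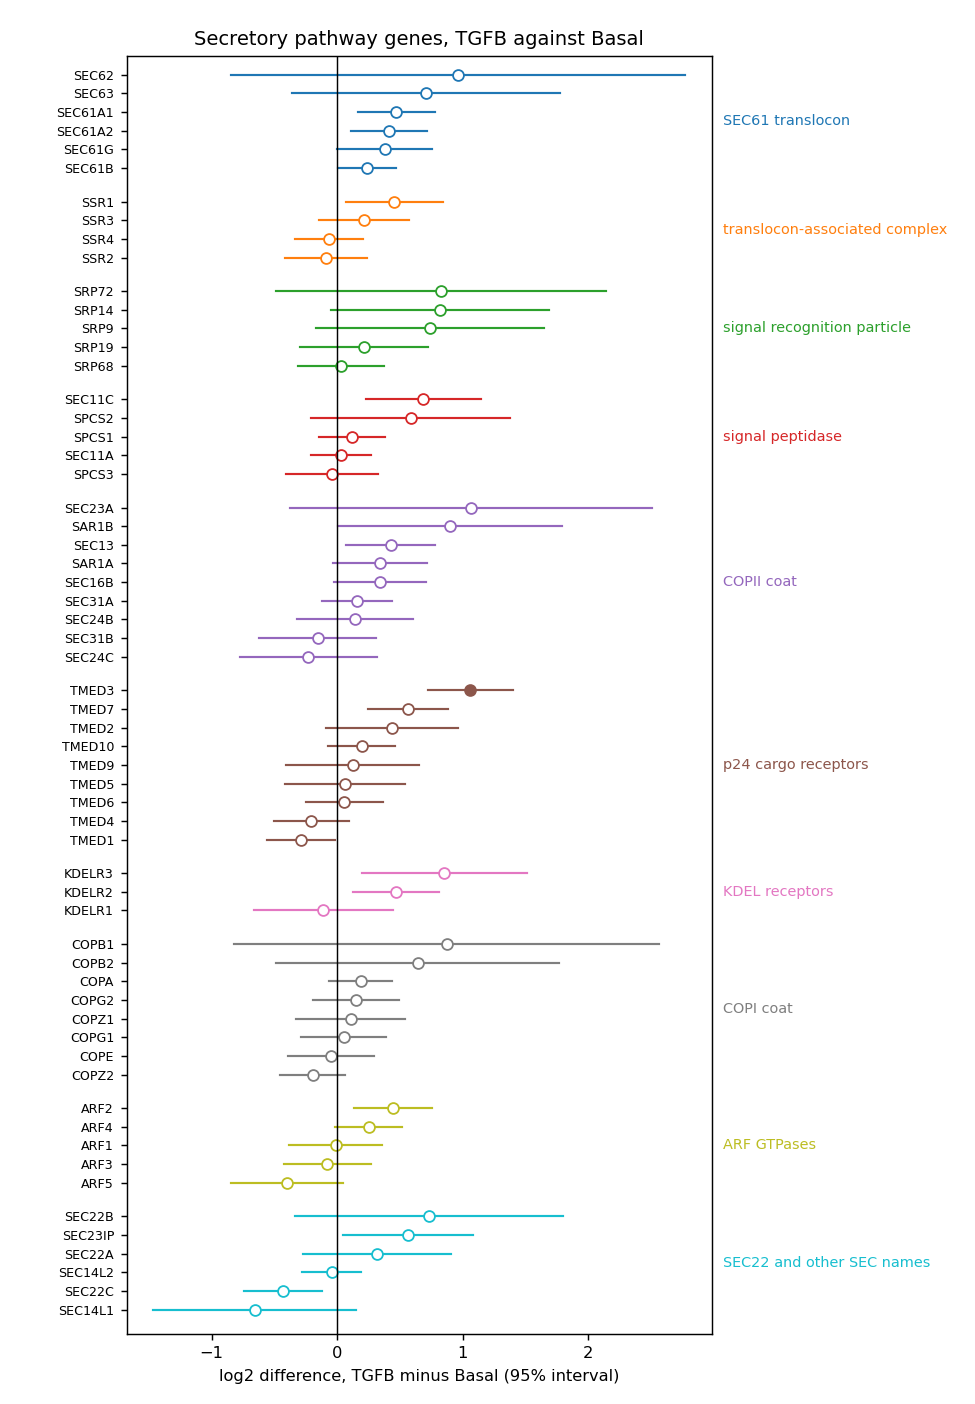
Treated minus basal difference in log2 expression (x axis) for each of the 60 genes, grouped by role, with the 95% interval of the limma fit. The filled point is TMED3, the gene past the threshold, at 1.06; open points did not pass, and the widest intervals belong to SEC62, COPB1 and SEC23A.

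**Figure D2:**
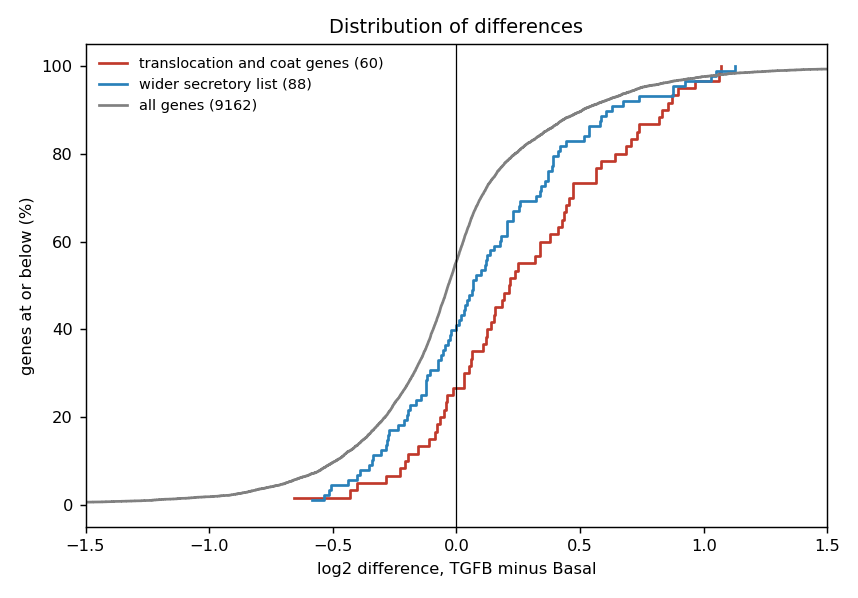
Share of genes at or below each treated minus basal log2 difference, for the 60 translocation and coat genes, the 88 measured genes of a wider secretory list and all 9162 genes (differences beyond 1.5 in size are not drawn). The medians were 0.21, 0.067 and -0.033 log2.

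The members of the signal recognition particle all had differences above 0, with a median of 0.74 log2 over 5 genes, and none passed the threshold. SRP9 and SRP14 form the pair that slows the ribosome while it is brought to the membrane. SRP14 lay at 10.17, 10.51 and 10.46 log2 in treated cells, against 8.87, 9.52 and 10.30 log2 in basal cells (difference 0.82, SE 0.36, limma adjusted p = 0.314). The groups overlapped, since Basal 3 stood above TGFB 1, and without Basal 1 the difference was 0.47. For SRP9 the levels were 9.88, 9.75 and 9.79 log2 in treated cells and 8.19, 9.40 and 9.63 log2 in basal cells (0.74, SE 0.37). Here the groups lay apart, with treated arrays close together and Basal 1 far below the other basal arrays; without Basal 1 the difference was 0.30. SRP72, which binds SRP68 on the RNA of the particle, had 7.85, 8.98 and 8.98 log2 in treated cells, against 7.20, 7.27 and 8.86 log2 in basal cells (0.83, SE 0.54). Its treated SD of 0.65 and basal SD of 0.94 were of the size of the difference. SRP19, which helps the particle assemble, stood at 0.21 (SE 0.21) and SRP68 at 0.030 (SE 0.14).

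All 6 genes of the SEC61 group, the protein-conducting channel of the endoplasmic reticulum with its partners SEC62 and SEC63, lay higher on average in treated cells, with differences from 0.24 to 0.96 log2 and a median of 0.44. None passed the threshold, and 3 had an unadjusted p under 0.05. SEC61A1, the pore-forming subunit, measured 10.38, 10.47 and 10.38 log2 in treated cells, against 10.10, 9.98 and 9.73 log2 in basal cells. The groups did not overlap, and the difference was 0.47 (95% interval 0.16 to 0.78, limma adjusted p = 0.132). Its paralogue SEC61A2 measured 7.56, 7.69 and 7.57 log2 in treated cells and 7.03, 7.36 and 7.21 log2 in basal cells (0.41, SE 0.12, limma adjusted p = 0.166). SEC61A2 had 5 probe sets, and the differences of the others were 0.47, 0.38, 0.29 and 0.060, all above 0. SEC61B, a small tail-anchored subunit, had 10.95, 11.05 and 10.96 log2 in treated cells, against 10.78, 10.77 and 10.71 log2 in basal cells. Its difference of 0.24 was small (1.18-fold, interval 1.00 to 1.38), and the arrays within each group were tight (SD 0.054 treated and 0.037 basal). The other small subunit, SEC61G, stood at 0.38 (SE 0.16) with the groups apart.

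SEC62 and SEC63 differed from the channel subunits in their spread. SEC62, which helps chains with weak signal sequences enter, lay at 7.46, 8.85 and 9.08 log2 in treated cells and at 6.52, 6.98 and 9.001 log2 in basal cells. Basal 3 lay between TGFB 2 and TGFB 3, and the difference of 0.96 had an SE of 0.74 (interval -0.84 to 2.77, limma adjusted p = 0.572). SEC63, which carries the J domain that recruits the chaperone HSPA5 to the channel, lay at 7.76, 8.54 and 8.62 log2 in treated cells, against 7.13, 7.16 and 8.51 log2 in basal cells (0.71, SE 0.44). Of the other probe sets of SEC63, 1 stood at 0.65 and 1 at -0.062.

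The translocon-associated complex, a glycoprotein complex beside the channel encoded by SSR1 to SSR4, had 2 members above and 2 below 0 (median 0.074 log2). SSR1 measured 10.97, 10.99 and 11.22 log2 in treated cells, against 10.77, 10.72 and 10.32 log2 in basal cells (0.46, SE 0.16, limma adjusted p = 0.218), with the groups apart. Of its other probe sets, 1 gave 0.41 (SE 0.33) with overlap, since Basal 3 lay above all treated arrays. The other gave 0.25 (SE 0.10). SSR3 measured 10.78, 11.26 and 10.95 log2 in treated cells and 10.85, 10.69 and 10.81 log2 in basal cells (0.21, SE 0.15). A second probe set of SSR3 gave 0.82 (SE 0.29), so the probe sets of this gene differed in size. SSR2 measured 11.31, 11.43 and 11.27 log2 in treated cells and 11.60, 11.46 and 11.21 log2 in basal cells, a difference of -0.088 (interval -0.42 to 0.24). SSR4 stood at -0.066 (-0.34 to 0.21). SSR4 averaged 12.50 log2 in treated and 12.57 log2 in basal cells.

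Of the signal peptidase, SEC11C stood out among its 5 genes and did not pass the threshold. SEC11A and SEC11C are alternative catalytic subunits. SEC11C measured 9.07, 9.58 and 9.36 log2 in treated cells, against 8.53, 8.49 and 8.93 log2 in basal cells, a difference of 0.69 (interval 0.23 to 1.14, limma adjusted p = 0.135). The groups lay apart by the gap between TGFB 1 and Basal 3. SEC11A stood at 0.029 (interval -0.21 to 0.27), so its interval reached no change as large as the estimate for SEC11C; the difference between these paralogues was not tested. SPCS2, an accessory subunit, measured 10.67, 11.38 and 11.16 log2 in treated cells and 9.99, 10.36 and 11.10 log2 in basal cells (0.59, SE 0.33), with overlap through Basal 3. SPCS1 measured 11.12, 11.34 and 11.22 log2 in treated cells and 11.13, 11.02 and 11.16 log2 in basal cells (0.12, SE 0.11), and SPCS3 stood at -0.040 (SE 0.15).

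COPII genes had a median of 0.34 log2, 7 of 9 above 0 and none past the threshold. SEC13, which forms the outer cage with SEC31A, measured 10.53, 10.98 and 10.76 log2 in treated cells, against 10.44, 10.27 and 10.28 log2 in basal cells (0.43, SE 0.15, limma adjusted p = 0.210). The groups lay apart, though TGFB 1 stood close to Basal 1. SAR1B, a GTPase that starts coat assembly, measured 6.31, 6.95 and 6.76 log2 in treated cells and 5.02, 5.96 and 6.35 log2 in basal cells (0.90, SE 0.37). Basal 3 stood just above TGFB 1, and a second probe set gave 0.51. Its relative SAR1A stood at 0.34 (SE 0.15). SEC16B, a scaffold of exit sites, measured 4.25, 4.13 and 4.59 log2 in treated cells, against 4.07, 3.88 and 4.01 log2 in basal cells (0.34, SE 0.15). The groups lay apart, but the mean level stood at the 17.1 percentile of the non-control probe sets. RMA gives no detection call, so SEC16B was not shown to be above background. SEC23A, the inner coat subunit that makes SAR1 hydrolyse GTP, had a difference of 1.07 log2 with an SE of 0.59 (interval -0.37 to 2.51, limma adjusted p = 0.428). It was 0.58 without Basal 1 and 1.64 without Basal 3. SEC23A lay at 9.12, 10.25 and 10.30 log2 in treated cells and at 7.85, 8.65 and 9.97 log2 in basal cells, again with Basal 3 above TGFB 1. SEC31A stood at 0.16 and the cargo-selecting subunits SEC24B and SEC24C at 0.14 and -0.23, each with an interval that spans 0. SEC31B stood at -0.16.

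The p24 cargo receptors held the gene past the threshold. These TMED proteins span the membrane of coated vesicles, bind cargo inside and coat subunits outside. TMED3 (Entrez gene 539132) measured 10.01, 10.43 and 10.13 log2 in treated cells, against 9.21, 9.11 and 9.07 log2 in basal cells. All treated arrays were well above all basal arrays, including Basal 3, which was the lowest of the 6. TMED3 averaged 10.19 ± 0.21 log2 in treated and 9.13 ± 0.073 log2 in basal cells (mean ± SD, n = 3 each) and rose 2.09-fold (95% interval 1.65 to 2.64, limma adjusted p = 0.0371). The array carried 1 probe set for it. The difference was between 0.94 and 1.15 log2 when any single array was left out, and the call held without Basal 3 (limma adjusted p = 0.0165) and ended without any of the other 5 arrays (0.0723 to 0.185).

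TMED7 was the next member by p. It measured 11.35, 11.42 and 11.37 log2 in treated cells, against 10.58, 10.89 and 10.97 log2 in basal cells, with the groups apart, and its difference of 0.57 (interval 0.24 to 0.89) had a limma adjusted p = 0.102. The second probe set of TMED7 gave 0.51. TMED1 lay on the other side, at 7.89, 8.02 and 8.09 log2 in treated cells and 8.32, 8.35 and 8.17 log2 in basal cells, with the groups apart (-0.29, SE 0.11, limma adjusted p = 0.261). TMED1, TMED3, TMED5, TMED6 and TMED7 belong to the gamma subfamily of p24 proteins, whose differences thus ran from -0.29 to 1.06 log2. TMED5 and TMED6 stood at 0.062 and 0.057, and a second probe set of TMED5 gave 0.64 (SE 0.62). TMED2 and TMED10, the members of the beta and delta subfamilies, stood at 0.43 (SE 0.22) and 0.19 (SE 0.11), and the alpha members TMED4 and TMED9 at -0.21 (SE 0.12) and 0.12 (SE 0.22).

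**Figure D3:**
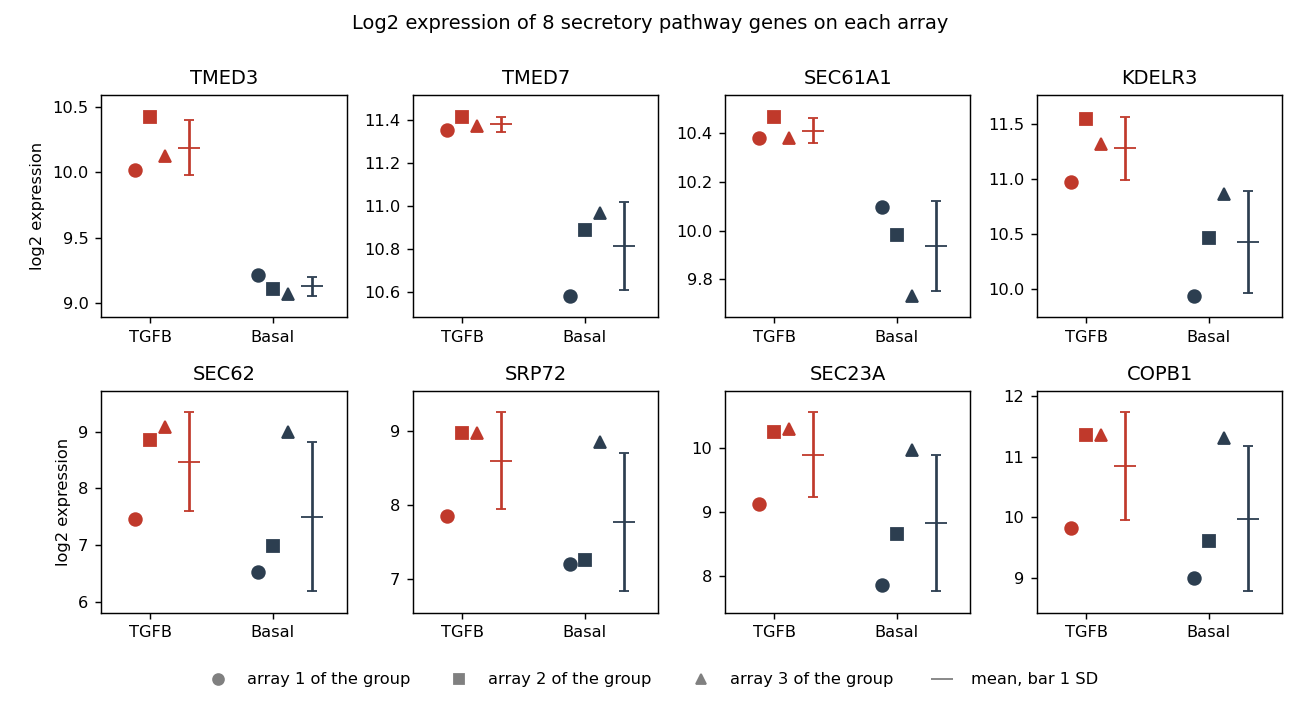
Log2 expression of 8 genes on each array (points; shape gives the array number within its group) with the group mean and 1 SD. In TMED3, TMED7, SEC61A1 and KDELR3 every treated array lies above every basal array, while in SEC62, SRP72, SEC23A and COPB1 Basal 3 lies near TGFB 2 and TGFB 3 and above TGFB 1.

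Among the KDEL receptors, which return chaperones such as HSPA5 to the endoplasmic reticulum, KDELR2 and KDELR3 had the groups apart and KDELR1 did not. KDELR3 measured 10.98, 11.55 and 11.31 log2 in treated cells, against 9.94, 10.47 and 10.87 log2 in basal cells (0.85, interval 0.20 to 1.51, limma adjusted p = 0.182). For KDELR2 the levels were 10.57, 10.95 and 10.84 log2 in treated cells and 10.24, 10.25 and 10.46 log2 in basal cells (0.47, SE 0.14, limma adjusted p = 0.162). KDELR1 lay at 9.75, 9.71 and 9.69 log2 in treated cells and at 10.14, 10.02 and 9.32 log2 in basal cells, where the basal arrays spread on both sides of the treated ones (-0.11, interval -0.67 to 0.44). The chaperones HSPA5 and HYOU1 are not members. They were picked by name as genes shared with another gene group, and no other chaperone is given here. The array carried 3 probe sets for HSPA5 and 5 for HYOU1, of which the brightest is given. Both genes rose. For HSPA5 the difference was 1.05 log2 (SE 0.16, limma adjusted p = 0.0449), and HYOU1 had the same size of difference (SE 0.15, limma adjusted p = 0.0371). Without TGFB 2, or without Basal 2, none of the 9162 genes passed, these included.

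COPI subunits had a median of 0.13 log2, and none had an unadjusted p under 0.05. COPA, the alpha subunit, measured 11.02, 11.15 and 11.15 log2 in treated cells, against 11.00, 10.86 and 10.91 log2 in basal cells (0.19, SE 0.10). COPZ2, a zeta subunit, lay lower in every treated array, at 7.42, 7.60 and 7.44 log2, against 7.68, 7.61 and 7.76 log2 in basal cells (-0.20, SE 0.11, limma adjusted p = 0.417). COPB2, the beta prime subunit, had 10.33, 11.47 and 11.45 log2 in treated cells and 10.17, 9.89 and 11.27 log2 in basal cells (0.64, SE 0.46). COPB1, the beta subunit, had 9.83, 11.36 and 11.36 log2 in treated cells and 9.01, 9.61 and 11.31 log2 in basal cells (0.87, SE 0.70). In both genes Basal 3 lay just below TGFB 2 and TGFB 3 and above TGFB 1. The remaining subunits lay near 0: COPZ1 at 0.11, COPG1 at 0.051, COPE at -0.052 and COPG2 at 0.15. The mean level of COPG2 stood at the 8.23 percentile of the non-control probe sets.

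The ARF GTPases showed no common direction, with 2 of 5 above 0 and a median of -0.013 log2. ARF2 measured 9.17, 9.18 and 9.06 log2 in treated cells, against 8.53, 8.66 and 8.90 log2 in basal cells (0.44, SE 0.13, limma adjusted p = 0.152). ARF4 had 12.38, 12.51 and 12.50 log2 in treated cells and 12.11, 12.18 and 12.34 log2 in basal cells (0.25, SE 0.11). ARF5 lay lower, at 6.47, 6.37 and 6.48 log2 in treated cells, against 7.17, 6.86 and 6.50 log2 in basal cells (-0.40, SE 0.18, limma adjusted p = 0.334), and Basal 3 missed the treated range by a small gap. In all of these the groups did not overlap. ARF1, which recruits the COPI coat, stood at -0.013 (interval -0.38 to 0.36), and its sign changed with the probe set used. ARF3 stood at -0.079.

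Further genes entered by the SEC pattern alone. SEC22B, a SNARE that fuses vesicles between the endoplasmic reticulum and the Golgi, stood at 0.73 (SE 0.44) and SEC22A at 0.32 (SE 0.24). SEC22C lay lower, at 5.54, 5.70 and 5.43 log2 in treated cells, against 6.09, 6.05 and 5.83 log2 in basal cells (-0.43, SE 0.13, limma adjusted p = 0.161). Its second probe set gave -0.66 (SE 0.11). SEC23IP, a partner of SEC23 at exit sites, measured 8.74, 8.97 and 9.04 log2 in treated cells and 8.04, 8.23 and 8.78 log2 in basal cells (0.56, SE 0.21), with overlap through Basal 3. SEC14L1 and SEC14L2 share the lipid-binding fold of yeast Sec14 and are neither translocation nor coat proteins. SEC14L1 measured 10.27, 10.07 and 10.12 log2 in treated cells, against 11.26, 11.15 and 10.03 log2 in basal cells (-0.66, SE 0.33, limma adjusted p = 0.384), with Basal 3 just below the treated arrays and Basal 1 and Basal 2 well above them. SEC14L2 stood at -0.043 (interval -0.28 to 0.19).

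**Figure D4:**
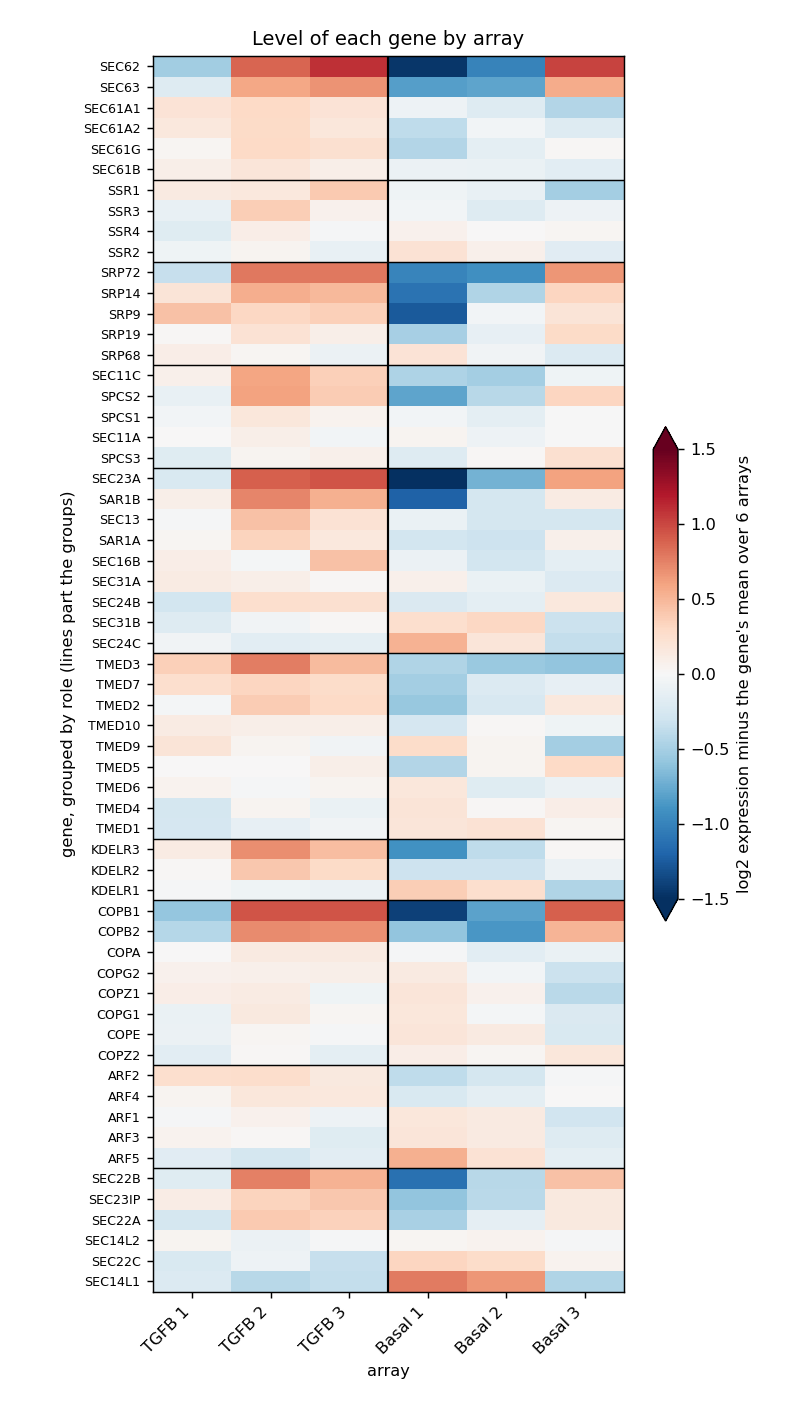
Log2 expression of each of the 60 genes on each array (columns, treated left of basal) minus the gene's mean over the 6 arrays, on a colour scale from -1.5 to 1.5. SEC62, SRP72, SEC23A, COPB1 and COPB2 are high on TGFB 2, TGFB 3 and Basal 3 and low elsewhere, whereas TMED3 is high on the 3 treated arrays.

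Of the 16 members with a difference over 0.5 log2, 5 had the groups apart and 11 did not (31.25% apart, against 42.03% of all genes with such a difference). These 16 made up 26.7% of the members, where 10.4% of all genes had such a difference. Basal 3 exceeded the mean of Basal 1 and Basal 2 by more than 1 log2 in 8 members (13.3%, against 9.41% of all genes), a limit chosen after the values were seen. The gap was 2.25 log2 for SEC62, 1.99 for COPB1, 1.71 for SEC23A, 1.62 for SRP72, 1.36 for SEC63, 1.24 for COPB2, 1.21 for SEC22B and 1.11 for SRP14. TGFB 1 lay below the mean of TGFB 2 and TGFB 3 in each of these 8, by 0.32 log2 in SRP14 and by 0.82 to 1.53 log2 in the others. SEC14L1 had the reverse gap, -1.17 log2. Other subunits of the same complexes varied: the gap was 0.86 log2 in SAR1B, 0.84 in SRP9 and 0.59 in SRP19, and it was -0.019 in COPA, -0.081 in SEC13 and -0.31 in SEC61A1.

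Without Basal 3, 11 members passed the threshold, against 16.8% of all genes. Of these, TMED3, TMED7, SEC11C, KDELR3, ARF2, SRP14, SEC63 and SEC23IP lay higher and SEC14L1, ARF5 and SEC22C lower in treated cells. Over all 9162 genes, 521 passed higher and 1017 lower without Basal 3. In that fit KDELR3 had a difference of 1.08 (limma adjusted p = 0.0371, where its alternatives reached 0.489), TMED7 one of 0.64 (0.0318, reaching 0.322) and SEC14L1 one of -1.05 (0.00937, reaching 0.740). Without any other single array no member passed by limma, and 0 to 8 of all 9162 genes did. At an unadjusted p under 0.05, 6 to 13 members lay higher and at most 1 lower in those fits, against 3.93% to 5.18% and 7.05% to 9.65% of all genes. The basal arrays that remain without Basal 3 lie on one side of the first principal component with TGFB 1, and TGFB 2 and TGFB 3 on the other, so treatment and this array split overlap in part in that fit, and the part of the split in these calls was not tested. Of the members, 37 were above 0 and 10 below 0 in all 6 fits that each left out an array and in the fit with all of them. Each such fit shares most arrays with the full fit, so a kept sign is not independent support. The matching share over all genes was not counted. The SEC61 group kept all 6 members above 0 in each of those fits, with medians from 0.40 to 0.49, while other medians moved more. The COPI median was -0.0065 without Basal 3, and the SRP median was 0.30 without Basal 1 and 1.018 without Basal 3. The translocon-associated median was -0.023 without TGFB 2, and the ARF median lay between -0.16 and 0.067 and was above 0 in 3 of the 6 fits.

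**Figure D5:**
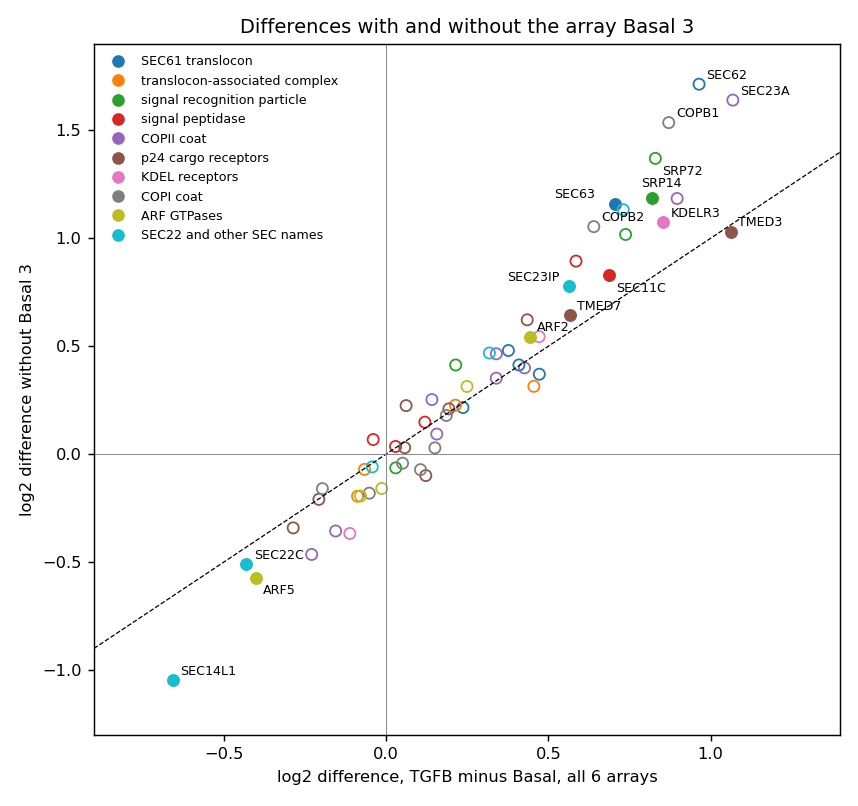
Treated minus basal log2 difference of each of the 60 genes without the array Basal 3 (y axis) against all 6 arrays (x axis); colours give the role, filled points passed the threshold without Basal 3, and the dashed line marks equal values. SEC62, SEC23A, COPB1 and SRP72 lie far above the line and TMED3 lies close to it.

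Other genes of the route were taken from a list of translocation partners, oligosaccharyltransferase subunits, exit and cargo receptors, SNAREs and Golgi tethers, ARF regulators and the clathrin coat. Of its 88 measured genes none passed the threshold by limma, 4 lay higher and 6 lower at an unadjusted p under 0.05, and 52 differences (59.1%) were above 0, with a median of 0.067 log2. These are 4.55% higher and 6.82% lower, against 5.99% and 11.4% of all genes, of which 44.4% were above 0. Without Basal 3, 9 passed higher and 6 lower, together close to the 16.8% of all genes that passed in that fit. Over all 9162 genes the split by direction was the other way, with 521 higher and 1017 lower. TRAM2, a channel-associated protein, lay at 6.01, 6.05 and 6.07 log2 in treated cells, against 5.72, 5.66 and 5.68 log2 in basal cells (0.36, SE 0.093, limma adjusted p = 0.123), and TRAM1 stood at 0.63 (SE 0.34). The oligosaccharyltransferase, which attaches glycans at the channel, had a median of 0.20 log2 over 11 genes, with the catalytic STT3A at 0.37 (SE 0.15) and OSTC at 0.88 (SE 0.39). ARCN1, the delta subunit of COPI, stood at 0.41 (SE 0.20) and ARFIP1, which binds ARF and ARL proteins, at 1.03 (SE 0.45). The exit and cargo receptors had 16 of 24 differences above 0 and a median of 0.14 log2, and the genes with the smallest p lay below 0. TRAPPC1, a tether subunit, stood at -0.52 (SE 0.14) and BCAP31 at -0.28 (SE 0.12). The SNARE USE1 and the Golgi tether COG8 stood at -0.54 (SE 0.18) and -0.58 (SE 0.22), in a group with a median of -0.065 log2. For the clathrin coat of the trans-Golgi and plasma membrane the median was -0.17 log2 over 10 genes, with the light chain CLTA at -0.40 (SE 0.13) and the adaptor subunit AP1S2 at 1.13 (SE 0.34).

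Factors known to set the level of secretory genes were measured for 7 of the chosen set, and none passed the threshold by limma, with none higher and 2 lower at an unadjusted p under 0.05 (5.99% and 11.4% of all genes). ATF4, a stress-induced activator, measured 11.55, 11.18 and 11.10 log2 in treated cells, against 10.97, 11.08 and 10.75 log2 in basal cells (0.35, SE 0.16). CREB3 and CREB3L3, membrane-bound factors of the CREB3 family, stood at -0.38 (SE 0.15) and -0.40 (SE 0.13), and ATF6B at -0.53 (SE 0.25). CREB3L2, known in other mammals to activate SEC23A, lay at 11.37, 8.12 and 9.84 log2 in treated cells and at 11.29, 10.54 and 7.12 log2 in basal cells, a wide spread within both groups. DDIT3 stood at 0.019 and the sensor kinase EIF2AK3 at 0.16. XBP1 and ATF6 were not analysed here.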

How the data were processed

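The deposited values are log2 expression; RMA and affy are the tools named for the authors' processing, per the submitters' processing notes, without versions; the genome build is not given in the sources used here. Of 24128 probe sets 112 controls were set aside, and 13292 of the remaining 24016 carried 1 gene symbol in the array annotation. For each of 9162 genes the probe set of highest mean level was used; all 60 members matched RefSeq symbols of assembly ARS-UCD2.0 by gene identifier. The test was limma 3.58.1 under R 4.3.3 (lmFit and eBayes on group alone, 4 residual degrees of freedom, two-sided, Benjamini-Hochberg over all genes, threshold 0.05, no filter), a fit tested on simulated data. The number of arrays limits the precision. Values for every array are given for members past the threshold and for the 3 members of each role with the smallest unadjusted p; SEC62, SEC63, SEC23A and COPB1 were added after their values were seen. From each further list the 2 genes with the smallest p were named, and all measured regulators. HSPA5 and HYOU1 were named as genes shared with another gene group. Members and lists were chosen with earlier results of these data known. Alternatives are given in the closing section. Same-numbered arrays deviated together in 2 of 3 pairs (correlations 0.67, -0.45 and 0.69). Some differently numbered arrays did so too, at 0.65 for TGFB 2 with Basal 3 and 0.54 for TGFB 1 with Basal 2. The remaining combinations were negative. The deviations thus did not follow the numbers, and these were not taken as pairs. Figures used matplotlib 3.10.9. No sequences were used here.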

Additional observations from a re-analysis of the deposited data

How the results depend on the processing

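The median difference of the 60 members was 0.17 to 0.27 log2 under the alternatives that can move a difference (normalization, filters, probe set choice and leaving out an array). Their count past the threshold was 1 under the other normalizations, variance models, filters, probe set choices and a threshold of 0.1. It was 0 with the replicate number as a replicate block (limma; 19 members higher and 1 lower at an unadjusted p under 0.05) and 0 to 11 when 1 array was left out. The wider list gave 0 to 15 without 1 array. Over all genes the 158 calls became 99 with limma-trend, 103 with the second probe set, 93 adjusted over all probe sets, 433 at a threshold of 0.1, 0 with the replicate block (797 higher and 1242 lower at an unadjusted p under 0.05) and 0 to 1538 without 1 array; the cause was not tested. TMED3 did not pass with the block, which cannot move a difference in this balanced design (limma adjusted p = 0.0801, against 0.0165 to 0.185 over all its alternatives). Signs changed in members near 0: ARF1 gave 0.058 with the mean of its probe sets and 0.12 with the second, SPCS3 0.068 with the second, and SEC11A -0.011 after a further quantile normalization. Leaving out 1 array gave -0.16 to 0.067 for ARF1, -0.18 to 0.024 for COPE, -0.042 to 0.15 for COPG1, -0.072 to 0.23 for COPZ1, -0.37 to 0.046 for KDELR1, -0.0062 to 0.058 for SEC11A, -0.15 to 0.068 for SPCS3, -0.064 to 0.14 for SRP68, -0.19 to 0.00092 for SSR2, -0.13 to 0.0082 for SSR4, -0.14 to 0.22 for TMED5, -0.017 to 0.16 for TMED6 and -0.099 to 0.29 for TMED9. Signal over background is not recorded in RMA values, so the lowest members (SEC16B, COPG2) could not be shown to be expressed.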
